A study of Sus scrofa with 4 samples.

Results

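The genes of the ID family (ID1, ID2, ID3 and ID4) and of the neurogenin family (NEUROG1, NEUROG2 and NEUROG3) were described by the peaks of H4K12 lactylation (H4K12la, a lactate-derived acyl group on lysine 12 of histone H4) called inside them or within 50 kb on either side. These 7 genes are among 16303 named protein-coding genes that the RefSeq annotation of the pig assembly Sscrofa11.1 places on the chromosomes with peaks. ID2 and NEUROG2 were picked from the measured values, for the strong peaks at their gene ends in the high bile acid liver, and the other 5 genes complete the families whatever their values. The values of ID2 and NEUROG2 at their gene ends are therefore given as a description and support nothing.

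ID proteins and neurogenins both carry a helix-loop-helix domain, through which transcription factors of this class pair with each other. Neurogenins also have a basic region that contacts DNA, and with ubiquitous partners called E proteins they switch on neuronal or endocrine programmes. ID proteins lack the basic region, so an E protein held by an ID protein cannot bind DNA. In the liver, ID genes are best known as targets of bone morphogenetic protein (BMP) signalling through SMAD1 and SMAD5, in hepatocytes and endothelial cells. Neurogenins are known from the developing nervous system, and NEUROG3 from the endocrine pancreas.

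The study profiled the livers of sows in late gestation. A group with low (normal) bile acids and a group with high bile acids each gave 1 library immunoprecipitated with an antibody to H4K12la and 1 input library, 4 samples in all, from animals labelled female and cells labelled hepatocytes. Strain, age, and the number of animals behind a library are not given in the sources used here. The deposited lists hold 28283 peaks for the high library and 5735 for the low library, and 2.15% and 0.227% of them had a q under 0.05. Folds, p-values and q-values are those of the authors' peak caller, which set each library against its own input. A fold is the enrichment at the highest point of a peak, its summit, over the local background. In this ratio 1 is added to both the fragments and the expected number. A fold is therefore lower than fragments divided by expected, the more so at small counts. With 1 library per group there is no replicate, no test between the groups was run, and a peak on 1 list but not on the other says only that the calls differed. Of 4 hepatocyte marker genes, CYP7A1 and TTR had a peak within 1 kb of a gene end in the high list and ALB and APOA1 had none, and in the low list none of the 4 had one. Peaks of this mark do not measure expression, so these markers do not check the labelled cell type.

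Around the 7 genes the high list held 13 peaks within 50 kb and the low list held 2. In the high list 6 of the 7 genes had at least 1 such peak, where 85.6% of all named coding genes did. ID4 was the gene without one. In the low list 2 of 7 had one, ID1 and ID2, where 41.4% of all genes did. The same 2 genes had peaks in both lists, against 38.0% of all genes. Both shares of the members in the low list lay below those of all genes, and with 7 genes a single gene moves such a share by 1 in 7. Within 50 kb of the 7 genes no high-list peak overlapped a low-list peak. The closest pair in these windows lay on opposite sides of ID2, 5215 bp apart. Outside them, 55.3 and 58.7 kb above ID2, a low-list and a high-list peak lay 2817 bp apart.

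**Figure D1:**
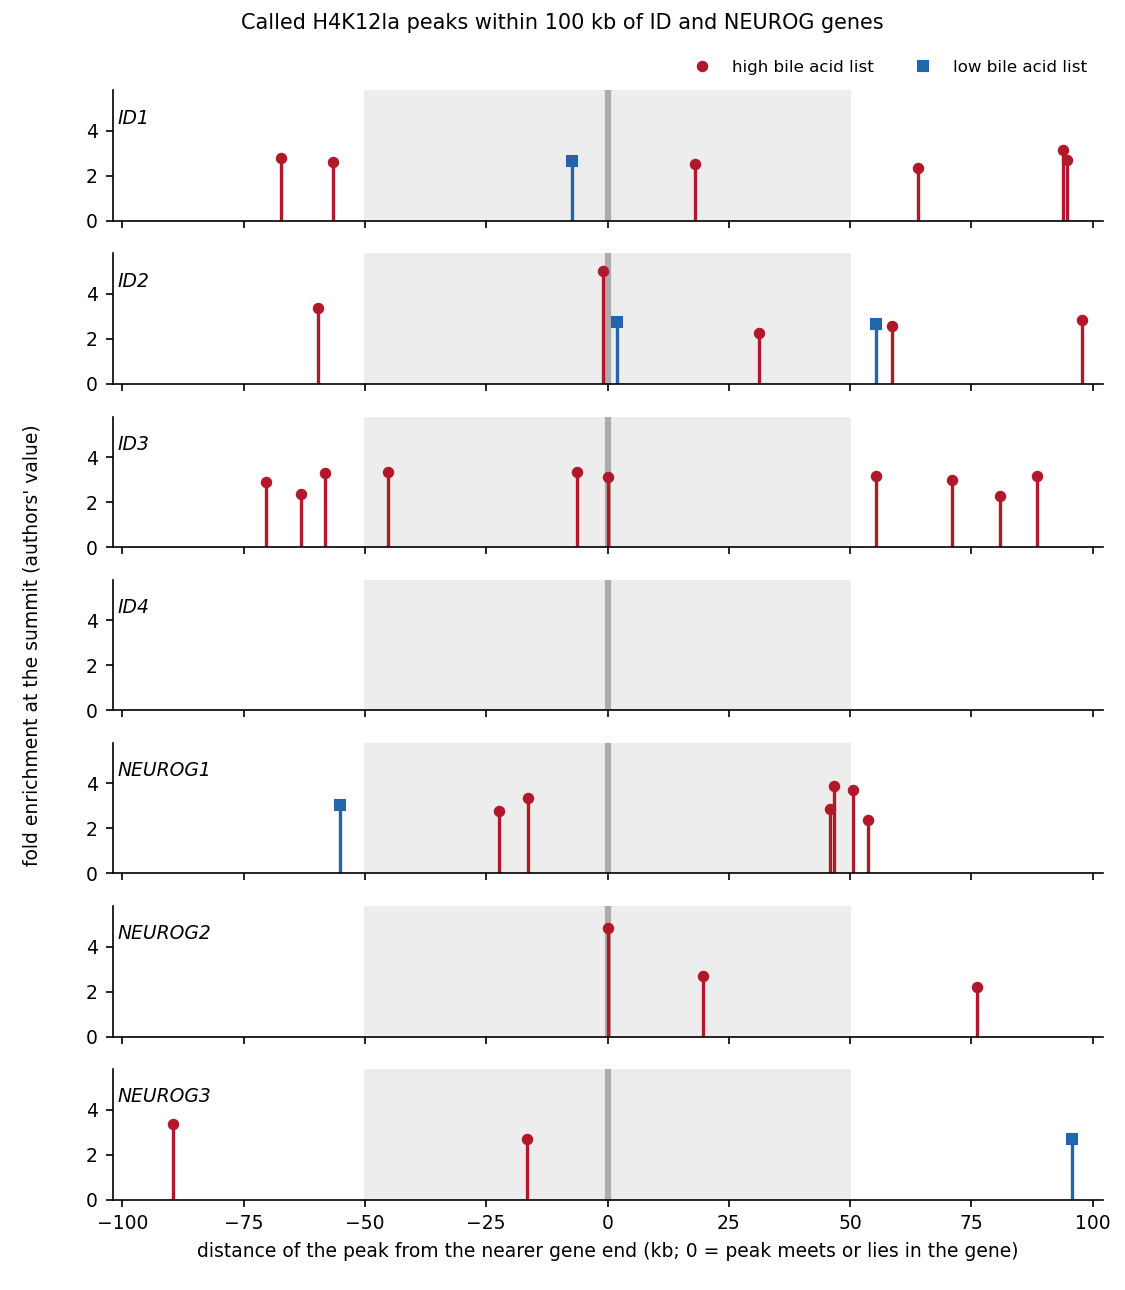
Called H4K12la peaks within 100 kb of the 7 genes, 1 panel per gene. The x axis is the distance in kb from the nearer gene end to the peak, toward lower coordinates on the left. The y axis is the authors' fold at the summit, with red circles for the high and blue squares for the low bile acid list, and grey shading marks 50 kb on either side. The tallest peaks stand at ID2 (fold 5.03) and NEUROG2 (4.84), and the ID4 panel is empty in both lists.

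The number of peaks behind these counts was ordinary for genes of this kind. The 7 genes are short, from 1225 bp (ID1) to 5401 bp (NEUROG2) with a median of 2449 bp, where the median of all named coding genes was 25605 bp. Each had 0 to 4 high-list peaks within 50 kb, with a median of 2. The 2023 other genes of the same length range also had a median of 2, and 83.6% of them had at least 1. The 5 genes that were not picked on their values had a median of 1 high-list peak within 50 kb, below that median of 2. Around these 5 genes the high list held 9 peaks in 0.512 Mb of window, or 17.6 per Mb, against 12.5 per Mb over all autosomes. The low list held 1 peak around them, or 1.95 per Mb, against 2.53. The autosome rates also cover sequence far from genes, so they are not a like comparison for windows around genes.

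At gene ends, within 1 kb on either side of the first or last base of the gene, 3 of the 7 genes had a high-list peak (ID2, ID3 and NEUROG2), and 18.4% of all named coding genes did. None had a low-list peak there, and 3.58% of all genes did. A gene-end peak with a q under 0.05 was present at ID2 and NEUROG2, where 0.816% of all genes had one. Since those 2 genes were picked for these peaks, nothing is read from that share. Among the 5 genes not picked, ID3 alone carried a high-list gene-end peak, so the share was 20.0% and close to the 18.4% of all genes. Of the 2023 other genes of the members' length range, 21.7% had one. The annotation used here gives no strand, so which gene end is the transcription start was not determined, and exons and untranslated regions were not told apart.

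ID2 encodes an inhibitor of E proteins that is also known to bind the retinoblastoma protein, and lies on chromosome 3 at 127500759 to 127503207. Its high-list peak spans 127499257 to 127499926, ends 833 bp before the lower end of the gene, and touches no annotated gene. The fold was 5.03, with p of 3.40e-09 and q of 0.00241, from 14 fragments at the summit (exact Poisson 95% interval 7.65 to 23.5) over 1.98 expected. By p it stood 32nd in the high list, by fold 9th, and its width of 670 bp placed it in the widest 3.34%. All of these describe the peak for which the gene was picked.

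The low list had its own peak at the other side of ID2. It spans 127505141 to 127505441, starts 1934 bp beyond the upper end of the gene, and lies within LOC106509912, a long noncoding RNA gene (127503509 to 127524966) that begins 302 bp past ID2. Its fold was 2.74, with p of 0.000904 and q of 1, from 8 fragments (3.45 to 15.8) over 1.94 expected. By p this peak stood near the middle of its list, at rank 2730 of 5735. The ID2 neighbourhood was thus called in both livers, at different positions. The 14 fragments at the high-list summit and 8 at the low-list summit have overlapping intervals and come from libraries whose total depth was not recovered. As ID2 was also picked for its high-list peak, the 2 counts do not measure a difference. In the high list a further peak of fold 2.27 (q 0.711) lay 31.1 kb beyond the upper end, nearer to LOC106509912 than to ID2.

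ID3, an E protein inhibitor known from lymphocyte development, lies on chromosome 6 at 81422541 to 81424169 and carried the broadest signal of the 7 genes. Its high-list peak spans 81422870 to 81423999 and covers 69.4% of the gene, from 329 bp inside the lower end to 170 bp before the upper end. At 1130 bp it was the 17th widest of the 28283 peaks, and 76 peaks reached 1000 bp. Its height was moderate, with a fold of 3.11 (q 0.242) from 9 fragments (4.12 to 17.1) over 2.21 expected, at rank 9685 by p. The width was not used to choose the gene.

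Within 50 kb of ID3 the high list held 2 more peaks, both of fold 3.36 (q 0.232). The first lay 6.4 kb below the gene, inside the noncoding RNA gene LOC110261114, and the second 45.2 kb below it and 546 bp from E2F2, a cell cycle transcription factor gene. In the low list the nearest peak to ID3 was 118.8 kb away.

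ID1, a well-known BMP target in liver cells, lies on chromosome 17 at 35316518 to 35317742 and was free of calls at its gene ends. The low list came closer to it than the high list. Its low-list peak spans 35308827 to 35309125, 7.4 kb below the gene in a stretch without annotated genes. Its fold was 2.68 (q 1), from 9 fragments (4.12 to 17.1) over 2.33 expected. The nearest high-list peak lay 18.1 kb above the gene and 4369 bp from LOC110257420, an unnamed coding gene, with a fold of 2.54 (q 0.5) from 8 fragments (3.45 to 15.8) over 2.55 expected. ID1 was the only member whose nearest peak came from the low list. Both peaks stood in the weaker part of their lists. Counted from the strongest by p, the low-list peak came 88.6% and the high-list peak 80.6% of the way down.

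ID4, known from neural, mammary and germline progenitors, lies on chromosome 7 at 15281535 to 15284895 and was the gene with the emptiest surroundings. No peak of either list lay within 100 kb of it. The nearest high-list peak was 136.6 kb away and the nearest low-list peak 796.9 kb away. For the whole genome the caller took a background of 1.98 expected fragments in the high library and 1.94 in the low library. Over these a call needed at least 6 and 7 fragments, with those of the low library counted before scaling. Fewer fragments than that leave no trace in the lists, so the mark was not detectable around ID4 at this depth and is not shown to be absent.

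NEUROG2, which drives neuronal fate in the cortex and in sensory ganglia, lies on chromosome 8 at 110200681 to 110206081. Its high-list peak spans 110205287 to 110205739, lies wholly inside the gene and ends 342 bp before the upper end. The fold was 4.84, with p of 7.37e-09 and q of 0.00427, from 14 fragments (7.65 to 23.5) over 2.1 expected, at rank 50 by p. A peak of fold 2.68 (q 0.5) lay 19.6 kb above the gene, inside the noncoding RNA gene LOC106507799. The low list held no peak within 100 kb of NEUROG2, and its nearest lay 733.5 kb away.

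NEUROG1, which acts in the sensory ganglia and the inner ear, lies on chromosome 2 at 137763091 to 137766787 and had the most high-list peaks of the 7 genes, 4, all of them away from the gene. Below the gene, in a stretch without annotated genes, peaks of fold 3.36 (q 0.232) and 2.78 (q 0.381) lay 16.4 and 22.3 kb away. Above it, the peaks belonged by position to CXCL14, a chemokine gene at 137803988 to 137813118. One of fold 2.88 (q 0.33) lay in CXCL14, 45.8 kb from NEUROG1, and one of fold 3.87 (q 0.0735) lay 304 bp past it, 46.6 kb from NEUROG1. The latter, from 11 fragments (5.49 to 19.7) over 2.1 expected, was the strongest peak near any of the 5 genes not picked.

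NEUROG3, which specifies endocrine cells of the pancreas, lies on chromosome 14 at 72604203 to 72606362, within the longer coding gene C14H10orf35 (72558826 to 72646748). Its only high-list peak within 50 kb lay 16.5 kb below it, inside C14H10orf35, with a fold of 2.68 (q 0.5) from 7 fragments (2.81 to 14.4) over 1.99 expected. The nearest low-list peak was 95.8 kb away. Of the 3 neurogenin genes, NEUROG2 had a peak inside the gene, and the nearest peaks of NEUROG1 and NEUROG3 lay over 10 kb away. As NEUROG2 was picked for that peak, no difference between the 3 genes is read from it.

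Several peaks sat near the limit of 50 kb. Just inside were those 45.2 kb from ID3 and 45.8 and 46.6 kb from NEUROG1. Just outside were high-list peaks of fold 3.69 and 2.37 at 50.7 and 53.8 kb from NEUROG1, both nearest to CXCL14, one of fold 3.17 at 55.4 kb from ID3, and low-list peaks of fold 3.04 at 55.0 kb from NEUROG1 and 2.66 at 55.3 kb from ID2. Between 50 and 100 kb the high list held 19 peaks around the 7 genes and the low list 3.

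The 2 highest folds belonged to peaks inside or within 1 kb of a member, ID2 and NEUROG2. The 4 high-list peaks within 10 kb of a member had folds of 3.11 to 5.03, and for 3 of them the member was the nearest annotated gene. The 9 peaks from 10 to 50 kb had folds of 2.27 to 3.87 with a median of 2.78, close to the median of 2.90 over the whole high list, and 2 of the 9, both at NEUROG1, had the member as their nearest gene. The first set contains both peaks that chose their genes, so the contrast in fold was not tested. Over both distances, another gene was nearer for 8 of the 13 high-list peaks.

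**Figure D2:**
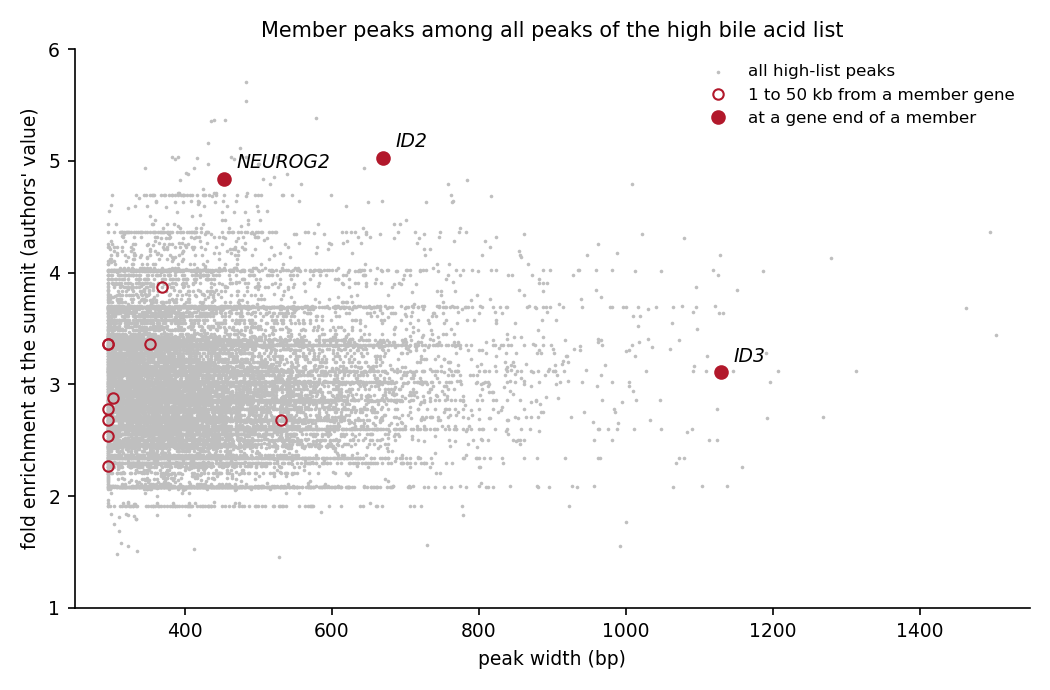
Width in bp (x axis) and authors' fold at the summit (y axis) of every high-list peak in grey, with the 3 gene-end peaks of the members as filled red circles and the other 10 peaks within 50 kb as open circles, some of which coincide. ID2 (670 bp, fold 5.03) and NEUROG2 (453 bp, 4.84) lie at the top of the range of fold, and ID3 (1130 bp, 3.11) lies far to the right at a middling fold.

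Many of the peaks were narrow and lay over a low background. Of the 13 high-list peaks, 6 had the smallest width in the list, 295 bp, as did 27.4% of all high-list peaks. The local background was low at all of them, with 1.98 to 2.55 fragments expected, and 5 of the 13 stood at the genome-wide value of 1.98, as did 20.7% of the list. Because the counts are small whole numbers, peaks repeat exactly. Both peaks below ID3 within 50 kb and the nearest peak of NEUROG1 had 9 fragments over 1.98 expected, and so did 1491 peaks in the list. Apart from the 2 peaks with 14 fragments, the high-list peaks had 7 to 11 fragments each, and their counting intervals all overlapped.

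Each count was set beside the fewest fragments that would have given a call in the other library over the same expected number. For the peaks of ID2 and NEUROG2 that number was 7 in the low library, below the lower bound of 7.65 for their 14 fragments. For the other 11 high-list peaks the interval reached the limit of the low library, which was 7 or 8. The missing low-list call therefore shows no difference at those 11. At the ID3 gene peak, for example, 9 fragments (4.12 to 17.1) stand beside a limit of 7. Both low-list peaks likewise had intervals that reached the limit of the high library, 7 for ID1 and 6 for ID2. The fragments and the expected number of the other library at these positions are not in the lists. As ID2 and NEUROG2 were picked on the height of these peaks, the lower bounds at 7.65 do not test a difference between the livers.

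**Figure D3:**
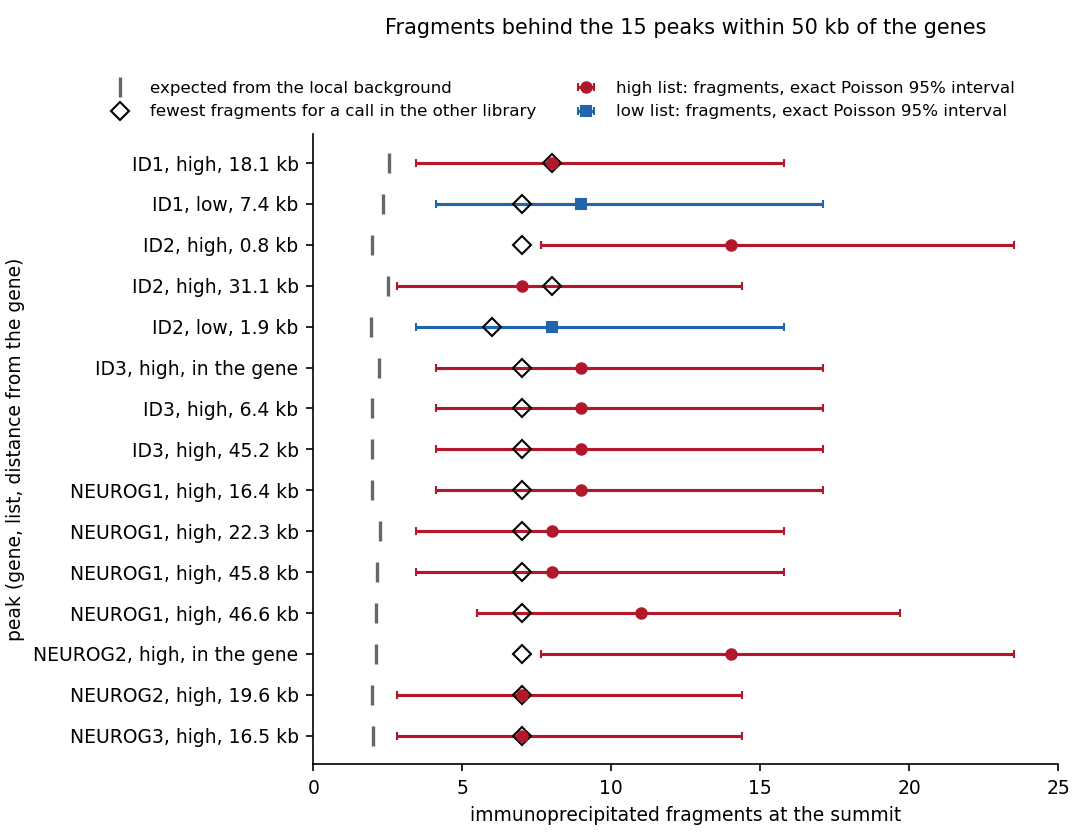
Fragments at the summit (x axis) for each of the 15 peaks within 50 kb (y axis, named by gene, list and distance), with exact Poisson 95% intervals as bars, red circles for the high and blue squares for the low list. Grey ticks mark the number expected from the local background. Open diamonds mark the fewest fragments that would give a call in the other library over that expected number. Fragments of the low library are shown before the caller's scaling, and its expected numbers are on the scaled side. Only the ID2 gene-end peak and the NEUROG2 peak, at 14 fragments each, have bars that start above the diamond, and they were picked for their height.

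The partners and relatives of these genes were counted in the same way, at gene ends. The E proteins TCF3, TCF4 and TCF12 are the targets of ID proteins and the partners of neurogenins. TCF12 had a high-list gene-end peak of fold 2.50 (q 0.381), TCF3 and TCF4 had none, and none of the 3 had one in the low list. Over all genes the shares were 18.4% and 3.58%. Inside the gene TCF3 had 2 high-list peaks, TCF4 had 3 and TCF12 had none, where 45.4% of all genes had at least 1. Within 50 kb all 3 genes had a high-list peak, as did 85.6% of all genes. Of 20 proneural and related basic helix-loop-helix genes, 2 had a high-list peak at a gene end (10.0%, against 18.4% of all genes) and 1 a low-list peak (5%, against 3.58%). ATOH8, a member known in liver for its response to BMP, had the strongest, spanning chromosome 3, 58965008 to 58965349. Its fold was 4.36 (q 0.031), from 12 fragments (6.20 to 21.0) over 1.98 expected. The interval reached the 7 fragments that a call in the low library needed, so the missing low-list call shows no difference. ATOH8 was the only gene of the 5 related lists with a gene-end q under 0.05, where 0.816% of all genes had one. BHLHE23 came next among the 20 genes with a fold of 2.68 (q 0.5). The low-list gene was OLIG2, with a fold of 3.04 (q 1) and no high-list gene-end peak. Within 1 kb, neither list reached a gene end of the listed NEUROD genes, which act downstream of neurogenins, or of ATOH1, ATOH7 or the listed ASCL genes. NEUROD4 had a high-list peak inside the gene and within 3 kb of an end, and ASCL3 had one within 3 kb.

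Of 19 other tissue-specific basic helix-loop-helix genes, none had a low-list gene-end peak, where 3.58% of all genes did. In the high list 3 had one (15.8%, against 18.4% of all genes). They were SCX, the tendon factor scleraxis, with a fold of 3.12 (q 0.232), MYOG, which encodes the muscle factor myogenin, with 2.60 (q 0.429) and MESP1, a factor of early mesoderm, with 2.50 (q 0.381). None of these 3 peaks reached a q under 0.05.

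HES and HEY genes encode repressors of the same class, most of which answer to Notch, and HES1 is known to oppose proneural genes. Of 11, 5 had a high-list gene-end peak (45.5%, against 18.4% of all genes), with a median fold of 2.78 where all genes with such a peak had 3.01. HES6 had 3.55 (q 0.139), HES4 had 3.11 (q 0.242), HEYL had 2.78 (q 0.381), HES1 had 2.70 (q 0.33) and HES2 had 2.08 (q 0.711). HES1 and HES2 were named after their values were seen. All 5 peaks had a q over 0.1. None of the 11 genes had a low-list call at a gene end, where 3.58% of all genes did.

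In the BMP pathway that acts on ID genes, the share with a call was nearer to that of all genes. Of 21 listed genes 20 were matched by symbol, and HJV was not matched and not analysed here. None of the 20 had a low-list gene-end peak, where 3.58% of all genes did. In the high list 5 had one (25%, against 18.4% of all genes), with a median fold of 3.02. They were the ligand gene BMP2 with a fold of 3.41 (q 0.139), SMAD1, the transcription factor that carries the signal to ID genes, with 3.36 (q 0.232), and the receptor genes ACVRL1 with 3.02 (q 0.33), ACVR1 with 2.68 (q 0.5) and ENG, which encodes the co-receptor endoglin, with 2.45 (q 0.5). ACVR1 and ENG were named after their values were seen. Neither list reached a gene end of BMP6, SMAD5 or HAMP, the hepcidin gene that answers to this pathway in liver. Away from the ends all 3 had calls. BMP6 had 3 high-list peaks and 1 low-list peak inside the gene. Within 50 kb HAMP had 7 high-list and 2 low-list peaks, and SMAD5 had 4 and 0. All 20 genes had a high-list peak within 50 kb, as did 85.6% of all genes.

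**Figure D4:**
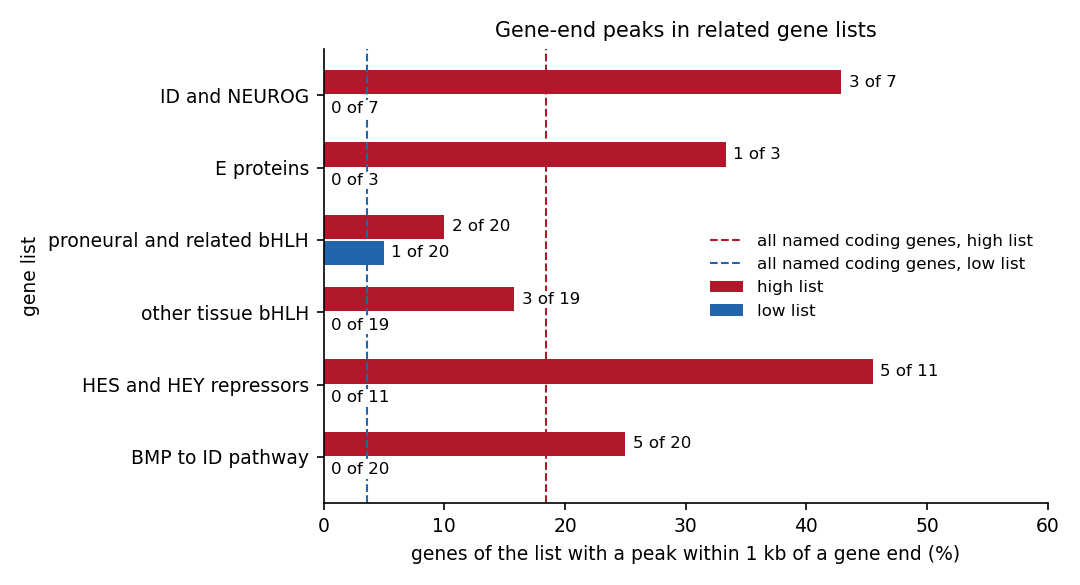
Share of genes with a peak within 1 kb of a gene end (x axis, percent) in the ID and NEUROG genes and in 5 related lists (y axis), red bars for the high and blue bars for the low list, with counts at the bars. Dashed lines mark the share over all 16303 named coding genes, 18.4% and 3.58%. HES and HEY repressors (5 of 11) and the ID and NEUROG genes (3 of 7, 2 of them picked for such a peak) stand to the right of the red line. E proteins (1 of 3) and BMP pathway genes (5 of 20) also stand to its right. Proneural genes (2 of 20) and other tissue-specific genes (3 of 19) stand to its left.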

How the data were processed

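H4K12la chromatin immunoprecipitation was sequenced in 2 immunoprecipitated and 2 input libraries. Per the submitters' processing notes, the authors used bcl2fastq 2.17, Trimmomatic 0.33, Bowtie 1.1.2 and MACS2 2.1.0 and named the builds hg38 and Sscrofa11.1. Coordinates are those of the deposited files, given 1-based, and were read as Sscrofa11.1. The deposited lists give each peak's fold (a ratio over the local background), −log10 p-value and −log10 q-value, and a display score and a summit offset. The score entered no result. A cutoff for calls is not stated in these sources, and the largest p-value in both lists was 0.00989.

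Gene positions and names are those of RefSeq on Sscrofa11.1. A peak was assigned to a gene by an overlap of at least 1 bp with the gene and 50 kb on either side. Fragments at each summit and the expected number were solved from fold and p-value and came out whole, within 0.002, for 99.99% of high-list and 99.98% of low-list peaks. In the low library the caller had scaled fragments by 0.8806, and limits for that library include this factor. Its fragments are printed unscaled, and its expected numbers are on the scaled side. The limit uses a p of 0.01. Intervals are exact Poisson 95% intervals and cover counting error only, since amplified reads are not independent molecules. Total depth was not recovered. Python 3.11.15, pandas 2.3.3 and scipy 1.17.1 were used, and assignment and fragment recovery were tested on simulated data.

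The members and gene lists were chosen with earlier results of these data known. Named genes are all 7 members, their neighbours, and up to 3 members of each related list by gene-end fold. Other list members named, with or without a call, were chosen after their values were seen. Sequences and motifs were not analysed here. Alternatives covered windows, thresholds, list length and overlap.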

Additional observations from a re-analysis of the deposited data

How the results depend on the processing

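The counts of members depended on the window and on the threshold. Within 50 kb, 6 members had a high-list peak and 2 a low-list peak. With a window of 10 kb the high-list count was 3, with a window of 100 kb the low-list count was 4, and the counts for high at 100 kb and low at 10 kb did not move. At q under 0.05 or at a fold of 4 or more, the high list kept 2 members (ID2 and NEUROG2) and the low list 0. With the high list cut to the low list's length by p, a tie at 4.29e-05 had to be kept or left out. With 6991 peaks (tie kept) 4 members had a peak, and with 5500 (tie left out) 3 did. Counting only peaks nearest to the member, an alternative chosen after seeing the data, gave 4 and 1. When gene ends were widened to 3 kb, the low-list count at gene ends rose from 0 to 1 (ID2). Of the 73 genes in the 5 related lists, 16 (21.9%) had a high-list and 1 (1.37%) a low-list gene-end peak, against 18.4% and 3.58% of all genes. With 3 kb they were 29 (39.7%) and 2 (2.74%), against 31.3% and 6.66%. With the gene body the pooled counts were 28 (38.4%) and 6 (8.22%), below the 45.4% and 15.1% of all genes. The lists differed in this. In the high list E proteins (2 of 3), HES and HEY genes (6 of 11) and BMP pathway genes (12 of 20) lay above 45.4%. Proneural genes (3 of 20) and other tissue-specific genes (5 of 19) lay below it. In the low list BMP pathway genes (5 of 20) lay above 15.1%, and the other lists lay below it. No member had overlapping peaks of both lists at 1 bp, at 50% of the shorter peak or within 1 kb. No paired analysis was possible because there is a single immunoprecipitated library in each group.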
